A study of Mus musculus with 9 samples.

Results

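The 10 mouse genes described here encode chaperones and folding enzymes of the endoplasmic reticulum (ER) together with the factor XBP1 and the degradation factor HERPUD1. They were taken by symbol (Hyou1, Sdf2l1, Pdia4, Pdia6, Creld2, Manf, Xbp1, Herpud1, Calr and Canx) from the 55291 genes in each count table. All 10 had reads in every library, and all 10 were among the 15066 genes that passed the filter on low counts. The low-input RNA-seq libraries were made from a mouse acute myeloid leukaemia (AML) that carries Trp53(R172H/Δ), R172H being an amino acid substitution in p53. Its cells had been taken from lung or from bone marrow (BM) of wild-type recipient mice, or had been grown in vitro. There were 3 libraries in each of the 3 groups, and all 9 share that genotype, so no comparison is against cells with normal p53. The labels do not say how the leukaemia was made, whether it is 1 clone, how the cells were sorted from tissue, or whether libraries came from separate mice or cultures. The p-values therefore measure the spread between these libraries, which may be technical.

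Proteins that enter the ER are folded by lumenal chaperones, given disulphide bonds by protein disulphide isomerases, and held by the lectins calnexin and calreticulin until their sugar chains show that folding is done. When unfolded protein builds up, the unfolded protein response (UPR) is signalled by 3 membrane sensors. ATF6 is cut in the Golgi to free a transcription factor, IRE1 splices Xbp1 mRNA so that it encodes the active factor, and PERK slows translation and favours that of ATF4. ATF6 and spliced XBP1 are known to act through the ER stress response element (ERSE) and related sites in the promoters of chaperone genes. Haematopoietic cells with a heavy secretory load, such as plasma cells, depend on XBP1. Gene counts do not tell the spliced from the unspliced Xbp1 mRNA.

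Counted reads ran from 27485111 to 38761363 per library, so 1 read was worth 0.0249 to 0.0371 CPM, the unit used here for counts scaled to library size after TMM normalisation. The 10 genes had between 706 and 42006 reads each in a library and took 0.249% to 0.266% of reads in lung, 0.235% to 0.256% in BM and 0.204% to 0.214% in culture. Kit, a receptor of immature blood cells, was at 631 ± 129 CPM in lung, 633 ± 59.5 CPM in BM and 1167 ± 42.7 CPM in culture (mean ± SD, n = 3 each). The erythroid factor Gata1 averaged 318, 344 and 382 CPM in lung, BM and culture. Of the 17 leukaemic and immature myeloid markers, which summed to 1376 to 1567 CPM in lung, 1241 to 1427 CPM in BM and 2118 to 2228 CPM in culture, Kit and Myb (482, 440.2 and 545 CPM in lung, BM and culture) were highest. At an adjusted p under 0.05 (edgeR quasi-likelihood test), 7 of the 14 tested were higher and 5 lower in BM than in culture. Of all genes 30.7% were higher and 29.8% lower there. In lung 6 were higher and 3 lower than in culture, beside 27.9% and 27% of all genes. Ptprc averaged 8.11, 7.13 and 1.62 CPM in lung, BM and culture. Runx1 averaged 52.0, 42.4 and 67.7 CPM and Spi1 13.9, 10.5 and 3.94 CPM in lung, BM and culture, while Cebpa, Hoxa9 and Flt3 averaged at most 0.354 CPM in every group. Summed levels of the 10 neutrophil markers were 11.3 to 83.3 CPM in lung, 327 to 2044.5 CPM in BM and 1.28 to 2.55 CPM in culture. The 7 lung epithelium markers summed to 15.02 to 82.9 CPM in lung, 0.646 to 0.867 CPM in BM and 0.742 to 1.20 CPM in culture. The part of these other cell types in the results below was not tested. In bulk RNA, fewer cells of a type and less RNA per cell cannot be told apart.

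Promoters are shown because ERSE and the related ERSE-II are the sites through which ATF6 and XBP1 are known to act on genes of this kind. RefSeq windows (GRCm38.p6, 250 bases before to 50 after the transcript start) were found for 8 of the 10 genes, with none for Hyou1 and Manf. Exact matches were searched on both strands to ERSE (CCAAT, any 9 bases, then CCACG), ERSE-II (ATTGG, any 1 base, then CCACG) and the site TGACGTGG, counted also where they overlap. ERSE was found once in each of Calr, Canx, Pdia6 and Creld2, and ERSE-II once in Herpud1. Among all 32851 mouse windows, 0.119% held ERSE, 0.0365% held ERSE-II and 0.676% held TGACGTGG. The windows of Sdf2l1, Pdia4 and Xbp1 held none of the 3, which says only that these letters were not in these windows. The 5 promoters with a match follow, 5′ to 3′ in the direction of the gene, each as the 250 bases before the start, with the fixed bases of the element in capitals. They lie at chr8:84846932-84847181 (Calr, minus strand), chr11:50325674-50325923 (Canx, minus strand), chr12:17266339-17266588 (Pdia6, plus strand), chr15:88819396-88819645 (Creld2, plus strand) and chr8:94386179-94386428 (Herpud1, plus strand).
Calr: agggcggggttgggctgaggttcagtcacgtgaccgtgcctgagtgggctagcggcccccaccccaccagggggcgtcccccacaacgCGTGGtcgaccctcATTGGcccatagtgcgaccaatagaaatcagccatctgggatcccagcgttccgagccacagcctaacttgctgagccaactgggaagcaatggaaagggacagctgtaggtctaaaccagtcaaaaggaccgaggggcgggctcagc
Canx: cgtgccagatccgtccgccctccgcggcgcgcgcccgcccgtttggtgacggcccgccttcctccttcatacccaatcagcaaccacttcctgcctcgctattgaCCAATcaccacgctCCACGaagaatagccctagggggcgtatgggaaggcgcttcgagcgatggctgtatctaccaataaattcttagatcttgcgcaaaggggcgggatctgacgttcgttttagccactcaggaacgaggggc
Pdia6: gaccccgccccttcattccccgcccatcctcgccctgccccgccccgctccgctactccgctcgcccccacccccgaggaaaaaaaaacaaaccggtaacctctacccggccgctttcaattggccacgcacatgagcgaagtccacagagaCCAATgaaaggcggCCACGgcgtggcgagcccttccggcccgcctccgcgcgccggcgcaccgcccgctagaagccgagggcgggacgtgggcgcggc
Creld2: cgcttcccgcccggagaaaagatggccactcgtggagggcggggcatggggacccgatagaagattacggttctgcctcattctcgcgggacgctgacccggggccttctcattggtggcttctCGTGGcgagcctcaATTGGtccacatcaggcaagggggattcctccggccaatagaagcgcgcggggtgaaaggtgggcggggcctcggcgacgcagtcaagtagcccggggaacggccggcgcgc
Herpud1: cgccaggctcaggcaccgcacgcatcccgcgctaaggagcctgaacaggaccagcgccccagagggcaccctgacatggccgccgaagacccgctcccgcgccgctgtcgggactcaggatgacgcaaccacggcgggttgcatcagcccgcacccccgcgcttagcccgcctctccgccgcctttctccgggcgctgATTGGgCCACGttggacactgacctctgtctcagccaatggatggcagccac
The first base of ERSE lay 162, 145, 98 and 126 bases before the start in Calr, Canx, Pdia6 and Creld2. In Calr and Creld2 the element read on the opposite strand. ERSE-II of Herpud1 began 52 bases before the start. A match describes letters and is not evidence of a bound site.

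**Figure D1:**
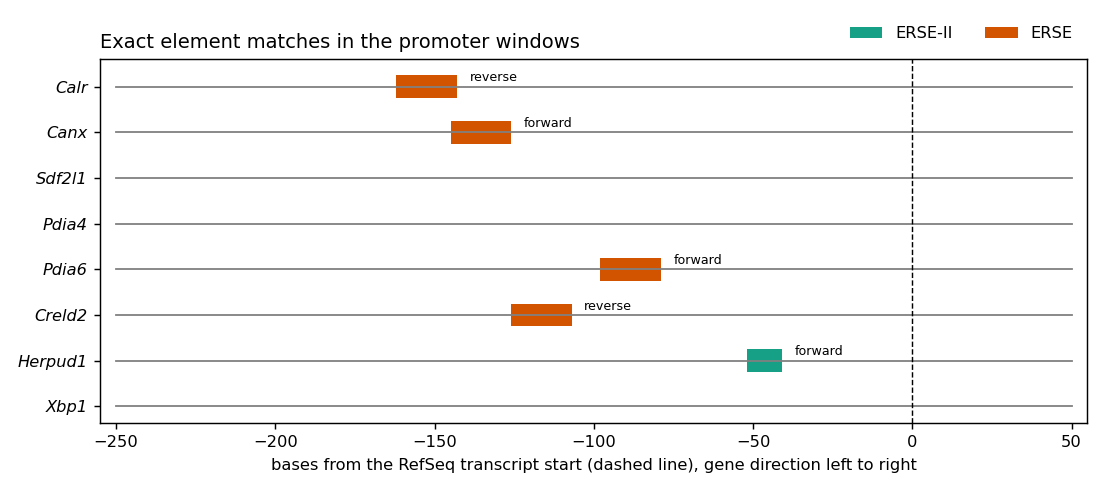
Exact ERSE (orange) and ERSE-II (green) matches in the RefSeq promoter windows of 8 genes, against distance in bases from the transcript start (dashed line). The 4 ERSE matches begin 98 to 162 bases before the start and the ERSE-II match of Herpud1 begins 52 bases before it, each marked as reading forward or in reverse.

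Of the 8 chaperone and folding genes, all but Pdia4 were higher in leukaemia cells from both tissues than in culture, whereas Herpud1 was lower in both and Xbp1 was lower in BM. In BM against culture 7 of the 10 genes rose and 2 fell at an adjusted p under 0.05 (edgeR quasi-likelihood test, Benjamini-Hochberg over all tested genes). Of all tested genes 60.5% passed in that comparison, 30.7% higher and 29.8% lower. In lung against culture 7 rose and 1 fell, where 54.9% of all genes passed, 27.9% higher and 27% lower. In lung against BM 2 rose and 0 fell (3 and 0 at an unadjusted p under 0.05, and 3 and 0 with DESeq2, Calr being added), where 25.3% of all genes passed, 14.2% higher and 11.1% lower. The median log2 change of the 10 genes was 0.40 in BM against culture, 0.37 in lung against culture and 0.03 in lung against BM, beside 0.05, 0.02 and -0.01 over all tested genes. Both tissue comparisons use the same 3 culture libraries. The libraries of BM and culture did not overlap for 7 genes higher and 2 lower in BM, as for 67.2% of all tested genes, 34.3% higher and 32.9% lower. Those of lung and culture did not overlap for 7 higher and 1 lower in lung, as for 66.8% of all genes, 34% higher and 32.9% lower. Lung and BM did not overlap for Creld2, Herpud1 and Calr, all 3 higher in lung, where 36.6% of all genes did not, 18.5% higher and 18.1% lower.

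**Figure D2:**
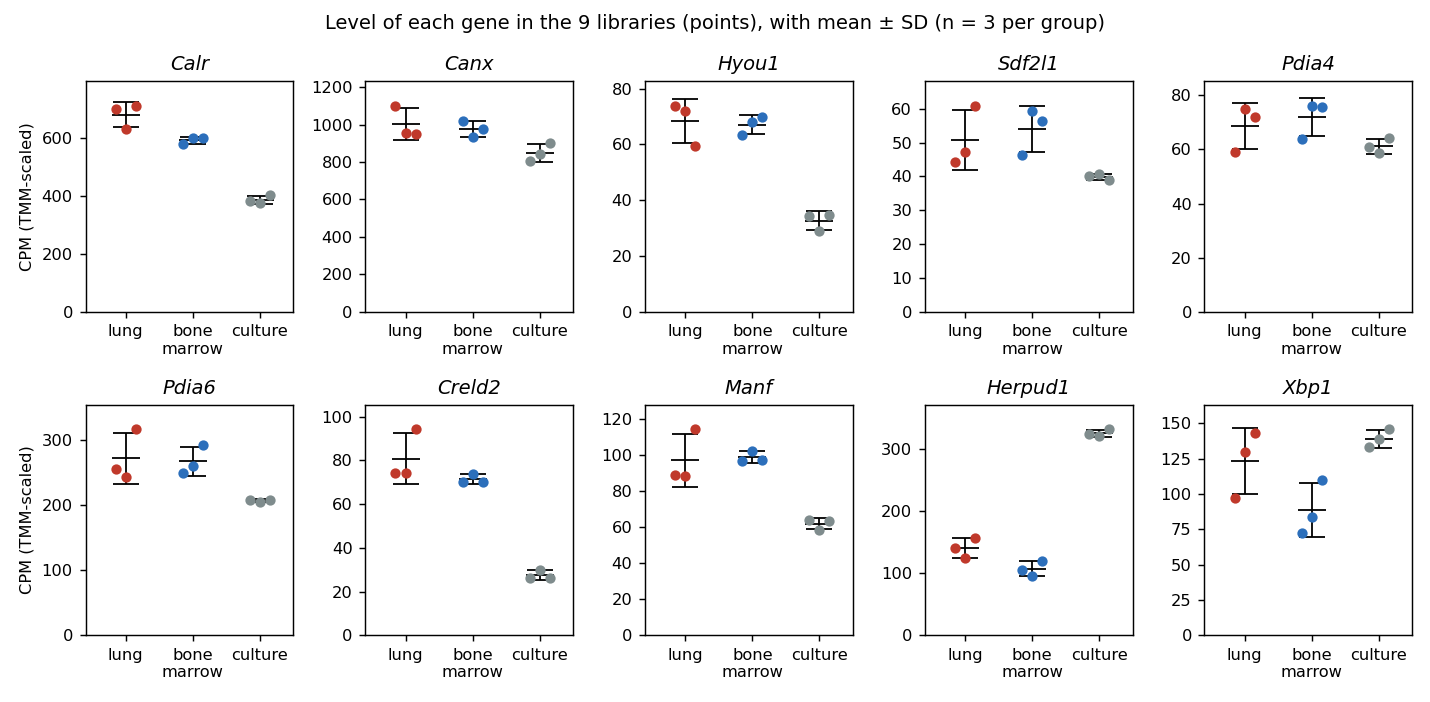
CPM of each of the 10 genes in the 9 libraries (points, coloured by group) with mean ± SD (n = 3), each panel starting at 0. Hyou1 and Creld2 in lung and BM lie above their culture libraries, while Herpud1 is highest in culture at 321 to 332 CPM.

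Calr and Canx had the highest read counts of the 10 genes, which does not allow for gene length. Calr, which encodes the soluble lectin calreticulin (chromosome 8, 84841850 to 84846934, GRCm38), had 700.2, 633 and 712 CPM in the 3 lung libraries, replicate 1 first. It had 579, 601 and 599 CPM in BM and 382, 375 and 403 CPM in culture. All tissue libraries lay above all culture libraries, and the lung libraries above those from BM. Calr rose 1.76-fold in lung against culture (log2 change 0.82 ± 0.07, SE; adjusted p = 1.05e-06) and 1.53-fold in BM against culture (0.62 ± 0.07; adjusted p = 9.36e-06). Lung against BM gave a log2 change of 0.20 ± 0.07 that missed the threshold (adjusted p = 0.0617) and passed with DESeq2 (adjusted p = 0.018). Canx, the membrane-bound lectin calnexin (chromosome 11, 50293961 to 50325673), was at 1100.2, 954 and 950.0 CPM in lung, 1016.5, 936 and 975 CPM in BM and 803, 840.4 and 902 CPM in culture. The tissue libraries again lay above those of culture, but by less. Canx rose by 0.24 ± 0.08 in lung (adjusted p = 0.0254) and by 0.20 ± 0.08 in BM (adjusted p = 0.0494) on the log2 scale against culture. The call in BM was lost without lung replicate 2 (adjusted p = 0.0856) or 3 (0.0753), BM replicate 1 (0.0952) or 3 (0.0956), or culture replicate 1 (0.261), 2 (0.184) or 3 (0.0512). The call in lung was lost without lung replicate 1 (0.123) or 2 (0.0558) or culture replicate 1 (0.2) or 2 (0.14). Reads of Calr per read of Canx numbered 0.636, 0.664 and 0.750 in lung, 0.570, 0.642 and 0.615 in BM and 0.475, 0.447 and 0.447 in culture, without overlap between tissue and culture.

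Hyou1 and Sdf2l1 both work with the central ER chaperone BiP, Hyou1 as a nucleotide exchange factor and Sdf2l1 in complexes with its J-domain partners. Hyou1 (chromosome 9, 44379490 to 44392369) was at 73.9, 72.0 and 59.5 CPM in lung, 63.4, 68.1 and 69.9 CPM in BM and 34.3, 28.8 and 34.8 CPM in culture. The 2 tissues overlapped, and their lowest library stood well above the highest of culture. Hyou1 rose 2.10-fold in lung (log2 change 1.07 ± 0.11; adjusted p = 2.44e-06) and 2.06-fold in BM (1.04 ± 0.11; adjusted p = 2.26e-06) against culture. Lung against BM was at 0.03 ± 0.11 (adjusted p = 0.864). Sdf2l1 (chromosome 16, 17130138 to 17132383) was at 44.3, 47.2 and 60.9 CPM in lung, 46.5, 59.3 and 56.4 CPM in BM and 40.0, 40.6 and 38.8 CPM in culture. Its tissue libraries spread widely, and the lowest stood close above culture. Sdf2l1 rose by 0.44 ± 0.12 in BM (adjusted p = 0.00756) and by 0.35 ± 0.12 in lung (adjusted p = 0.0281) on the log2 scale against culture. The call in lung was lost without lung replicate 3 (log2 change 0.19, adjusted p = 0.176) or culture replicate 1 (0.0876), 2 (0.0762) or 3 (0.089).

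The 2 protein disulphide isomerase genes of the set, whose products form and rearrange disulphide bonds, differed in whether they passed. Pdia6 (chromosome 12, 17266545 to 17284770) was at 254, 243 and 315 CPM in lung, 249, 259 and 291 CPM in BM and 208, 205 and 208 CPM in culture. Culture libraries were close to each other and below all 6 tissue libraries. Pdia6 rose 1.31-fold in lung (log2 change 0.39 ± 0.10; adjusted p = 0.00424) and 1.29-fold in BM (0.37 ± 0.10; adjusted p = 0.0056) against culture. Pdia4 (chromosome 6, 47796141 to 47813430) was at 59.0, 75.1 and 72.2 CPM in lung, 63.9, 76.2 and 75.7 CPM in BM and 60.9, 58.7 and 64.2 CPM in culture. Replicate 1 of each tissue lay within the range of culture. Its log2 change was 0.17 ± 0.11 in lung (adjusted p = 0.198) and 0.23 ± 0.11 in BM (adjusted p = 0.071) against culture, which did not pass. Without BM replicate 1 (0.31, adjusted p = 0.0207) or lung replicate 1 (0.23, adjusted p = 0.0413) the BM change passed, and without lung replicate 1 the lung change did too (0.27, adjusted p = 0.042). Whether the changes of Pdia4 and Pdia6 differ from each other was not tested.

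Creld2 and Manf encode small ER proteins that can also be secreted, Creld2 with disulphide isomerase activity and Manf as a stabiliser of BiP complexes known for protecting cells from ER stress. Creld2 (chromosome 15, 88819646 to 88826683) was at 74.4, 74.1 and 94.2 CPM in lung, 70.1, 73.9 and 70.2 CPM in BM and 26.2, 30.1 and 26.3 CPM in culture. Lung stood above BM by a narrow margin, and both were far above culture. It had the largest rise of the 10 genes, 2.94-fold in lung (log2 change 1.55 ± 0.11; adjusted p = 8.81e-08) and 2.59-fold in BM (1.38 ± 0.11; adjusted p = 1.8e-07) against culture. Lung against BM did not pass (0.18 ± 0.10; adjusted p = 0.224). Manf (chromosome 9, 106838312 to 106891979) was at 88.7, 88.5 and 114 CPM in lung, 96.3, 102 and 97.2 CPM in BM and 63.9, 58.2 and 63.4 CPM in culture. The tissues overlapped with each other and not with culture. Manf rose 1.57-fold in lung (0.65 ± 0.10; adjusted p = 0.000113) and 1.59-fold in BM (0.67 ± 0.10; adjusted p = 6.76e-05). Its annotated exons share 4.14% of their bases with Dcaf1 and 4.71% with 4930524O07Rik on the opposite strand, and counts made without strand cannot separate reads from that stretch.

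Herpud1 moved against the chaperones. It encodes a membrane protein that gathers the machinery of ER-associated degradation, and its promoter carries the ERSE-II match printed above. Herpud1 (chromosome 8, 94386438 to 94395377) was at 139.9, 124 and 156 CPM in lung, 105, 96.3 and 120.1 CPM in BM and 324, 321 and 332 CPM in culture. The 3 groups did not overlap. It fell 3.04-fold in BM (log2 change -1.60 ± 0.10; adjusted p = 2.24e-08) and 2.32-fold in lung (-1.21 ± 0.10; adjusted p = 3.62e-07) against culture. It was 1.31-fold higher in lung than in BM (0.39 ± 0.10; adjusted p = 0.0114), a call lost without BM replicate 2 (0.32, adjusted p = 0.0524). Reads of Creld2 per read of Herpud1 numbered 0.531, 0.595 and 0.603 in lung, 0.670, 0.767 and 0.585 in BM and 0.0808, 0.0937 and 0.0793 in culture.

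Xbp1, the transcription factor of the IRE1 arm (chromosome 11, 5520659 to 5525893), was at 97.4, 129 and 143 CPM in lung, 72.1, 83.6 and 109.7 CPM in BM and 133, 139 and 146 CPM in culture. It had the widest spread of the 10 genes in both tissues, with a coefficient of variation of 19.0% in lung and 21.8% in BM. Lung overlapped with both other groups, and BM lay below culture. Xbp1 fell 1.57-fold in BM against culture (log2 change -0.65 ± 0.16; adjusted p = 0.00436), while lung against culture gave -0.17 ± 0.16 and did not pass (adjusted p = 0.376). Lung against BM passed narrowly (0.48 ± 0.16; adjusted p = 0.0485). That call was lost without lung replicate 2 (adjusted p = 0.134) or 3 (0.152), BM replicate 1 (0.118) or 2 (0.155), and culture replicate 1 (0.0714), 2 (0.0755) or 3 (0.0688). It was also lost under upper-quartile scaling (0.0721), with library size alone (0.0695) and in a fit of these 6 libraries (0.0997).

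**Figure D3:**
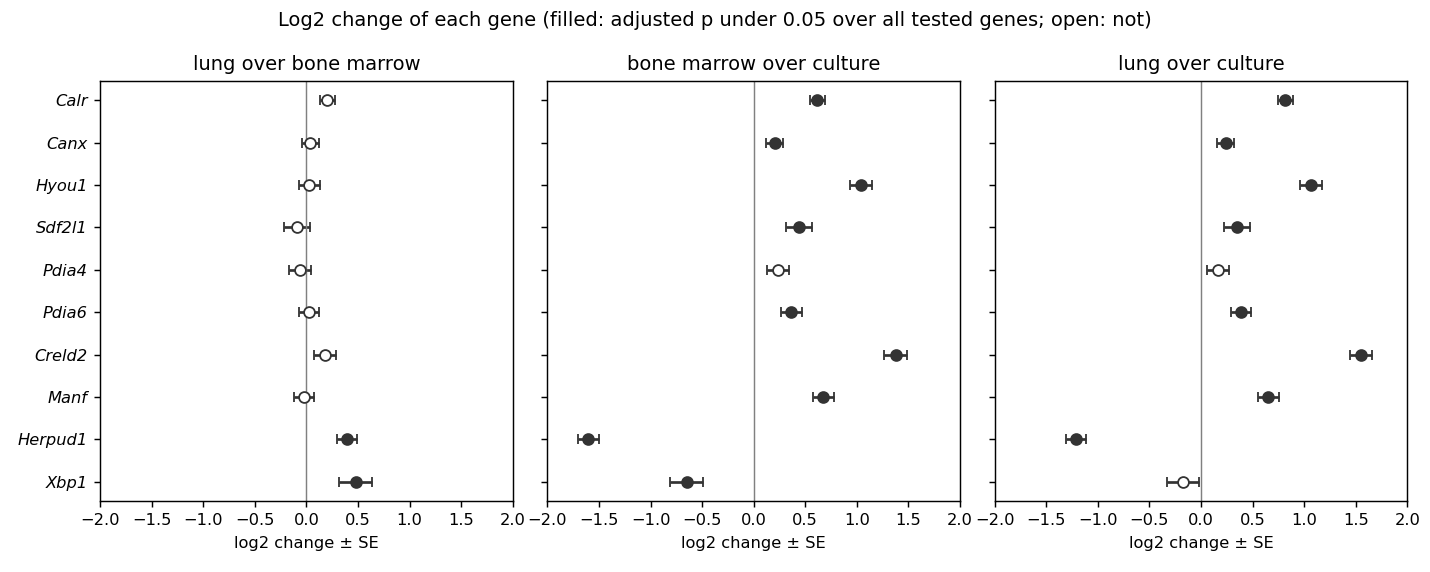
Log2 change ± SE of the 10 genes in each comparison, with filled points where the adjusted p over all 15066 tested genes was under 0.05. In the panels against culture Creld2 lies farthest right (1.38 in BM, 1.55 in lung) and Herpud1 farthest left (-1.60 and -1.21), and in lung over BM only Herpud1 and Xbp1 are filled.

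The calls against culture can be read beside marker RNA of other cells. BM replicate 3 held most neutrophil marker RNA (2044.5 CPM, against 327 and 581 CPM in BM replicates 1 and 2), and all 10 neutrophil markers were lower in lung than in BM. Lung replicate 1 held most lung epithelium marker RNA (82.9 CPM, against 38.3 and 15.02 CPM). Summed macrophage markers were at 15.2 to 36.0 CPM in lung, 45.4 to 178 CPM in BM and 1.11 to 1.42 CPM in culture. All 9 tested were higher in both tissues than in culture, beside 30.7% of all genes in BM and 27.9% in lung. Summed endothelium markers were at 10.4 to 33.4 CPM in lung, 2.32 to 2.98 CPM in BM and 1.82 to 2.24 CPM in culture. All 6 tested were higher in lung than in BM and than in culture, beside 14.2% and 27.9% of all genes. The 9 fits that each left out a library counted 6 to 8 of the 10 genes higher in BM than in culture and 5 to 7 higher in lung. Hyou1, Creld2, Manf, Calr and Pdia6 rose and Herpud1 fell against culture, in both tissues, in all 18 alternative fits. Summed plasma cell markers, which include the folding gene Txndc5, were at 250 to 314 CPM in lung, 254 to 292 CPM in BM and 497 to 510 CPM in culture. The plasma cell genes Mzb1 and Tnfrsf17 averaged at most 0.0182 CPM in every group. Ighm, which this list also holds, averaged 53.0 CPM in lung, 44.9 CPM in BM and 318 CPM in culture. Of this list's 8 tested genes, 5 were higher and 3 lower in BM than in culture, beside 30.7% and 29.8% of all genes. In lung 5 were higher and 2 lower than in culture, beside 27.9% and 27% of all genes. Igkc averaged 3.06, 3.13 and 0.417 CPM in lung, BM and culture, and Txndc5 206, 202 and 140 CPM.

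Levels of the 10 genes were compared with each other per kilobase of annotated exons (GENCODE M21). In lung the order was Calr (237 ± 14.8 CPM per kilobase), Canx (213 ± 18.2), Pdia6 (72.4 ± 10.4), Herpud1 (60.1 ± 6.81), Creld2 (59.2 ± 8.43), Sdf2l1 (45.9 ± 7.98), Xbp1 (38.0 ± 7.23), Pdia4 (28.7 ± 3.58), Manf (27.5 ± 4.16) and Hyou1 (9.47 ± 1.08; SD, n = 3 each). Neighbours in that order overlapped in their libraries except Canx and Pdia6, and Manf and Hyou1. In BM, Canx (208 ± 8.62) and Calr (206 ± 4.22) overlapped at the top, and Hyou1 (9.28 ± 0.463) was lowest. In culture Canx was first (181 ± 10.7), and Herpud1 (139 ± 2.37) overlapped with Calr (134 ± 5.09). All other neighbours were apart there, including Creld2 (20.1 ± 1.62) and Manf (17.5 ± 0.906). Herpud1 had rank 4 in lung, 6 in BM and 2 in culture, and Creld2 had rank 5, 4 and 8. With the longest transcript as the length, Herpud1 had rank 4, 4 and 3, and Creld2 rank 5, 5 and 9. On that length Hyou1 was at 13.9, 13.6 and 6.63 CPM per kilobase in lung, BM and culture, still the lowest of the 10.

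**Figure D4:**
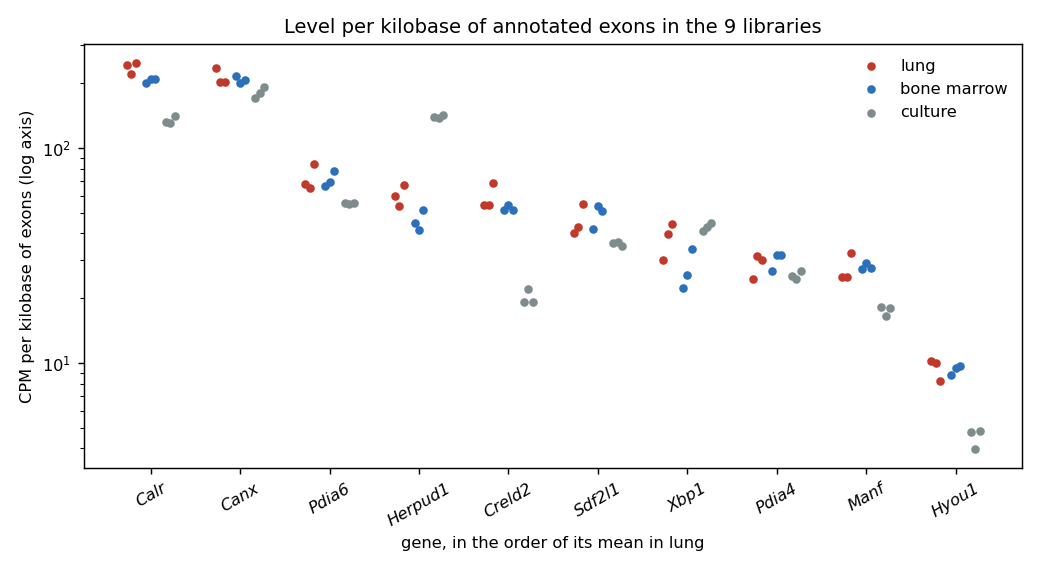
CPM per kilobase of annotated exons in the 9 libraries, on a log axis, with genes in the order of their mean in lung. Calr and Canx lie at or above 130.4 in every library, and Herpud1 in culture (137 to 142) lies among them, apart from its lung (53.3 to 67.0) and BM (41.3 to 51.5) libraries.

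Profiles were compared by the root mean square difference of log2 CPM over the 9 libraries, each gene centred on its own mean. Among the 45 pairs of the 10 genes, Sdf2l1 and Pdia6 (0.10) and Manf and Calr (0.13) were closest, and Creld2 and Herpud1 (1.36) farthest apart. The 3 closest of 8747 other genes of 10 CPM or more differed from their gene by 0.03 to 0.12. None of these 30 was another of the 10. For Hyou1 they were Ubxn8, Man2b1 and Itgb2, and for Creld2 they were Grwd1, Wdr4 and Bop1. For Herpud1 they were Acad11, Grn and Ampd2, and for Xbp1 Irs2, Fut8 and Rtn4ip1. For Sdf2l1 they were Bcs1l, Hacd2 and Gtf2h1, for Pdia6 Eed, Azi2 and BC005624, and for Pdia4 Alg8, Tal1 and N4bp2l2. For Manf they were Nufip1, Rrp36 and Neurl3, for Calr Pitpna, Nol10 and Plvap, and for Canx Clp1, Usp1 and Maoa. These are descriptions over 9 libraries in 3 groups, with no test.

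Of 37 other ER folding genes tested, 12 rose and 10 fell in BM against culture (median log2 change 0.15), near the 30.7% higher and 29.8% lower over all genes. In lung against culture 13 rose and 10 fell (0.07, with 6 lower without lung replicate 2), beside 27.9% and 27% over all genes. Hspa5, which encodes BiP and had the highest CPM of the list, was at 1046 CPM in lung, 777 CPM in BM and 699 CPM in culture. It rose in lung against culture (0.58 ± 0.10; adjusted p = 0.000243) and in lung against BM (0.43 ± 0.10; adjusted p = 0.00768), and its BM change of 0.15 ± 0.10 against culture did not pass. Prdx4, an ER peroxiredoxin, rose by 1.28 ± 0.09 in BM and by 0.89 ± 0.09 in lung. The oxidase gene Ero1l, which recharges disulphide isomerases, changed by -1.87 ± 0.11 in BM and -1.47 ± 0.10 in lung, and Creld1, the paralog of Creld2, by -2.49 ± 0.18 and -1.90 ± 0.18.

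Of 31 tested genes of ER-associated degradation, the list nearest to Herpud1 in role, 7 rose and 13 fell in BM against culture (median -0.18), where 30.7% of all genes rose and 29.8% fell. In lung against culture 10 rose and 12 fell (median -0.01), where 27.9% and 27% of all genes did. Leaving out culture replicate 1 or 2 left 4 higher in BM and 5 higher in lung, and leaving out culture replicate 3 left 8 lower in BM, as did upper-quartile scaling and library size alone. Edem1, a lectin that hands misfolded glycoproteins to degradation, fell by 1.28 on the log2 scale in BM against culture (-1.28 ± 0.09; adjusted p = 7.62e-08) and was higher in lung than in BM (0.58 ± 0.09). Rhbdd1, an ER rhomboid protease, changed by -1.81 ± 0.11 in BM and -1.55 ± 0.11 in lung. Edem3, a relative of Edem1, rose by 0.66 ± 0.10 in BM and 0.88 ± 0.10 in lung.

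Of 24 genes of N-glycan transfer, 11 rose and 4 fell in BM (2 fell without culture replicate 1) and 13 rose and 4 fell in lung, against culture (medians 0.18 and 0.30). For this list and the next 2, the shares over all genes were 30.7% higher and 29.8% lower in BM, and 27.9% and 27% in lung. Alg3, a mannosyltransferase of the lipid-linked sugar, rose by 0.63 ± 0.09 in BM and 1.03 ± 0.09 in lung, and Gfpt1, the first enzyme of the hexosamine pathway, changed by -2.12 ± 0.10 and -1.62 ± 0.10. Of 26 genes of translocation into the ER, 11 rose and 7 fell in BM against culture (7 rose without culture replicate 1 or 2, and 4 fell without culture replicate 2). In lung 7 rose and 5 fell (11 rose without BM replicate 1, and 11 to 12 under upper-quartile scaling, library size alone, 6 libraries, DESeq2 and voom). Transport between ER and Golgi had 9 of 35 higher and 17 lower in BM against culture (median -0.20), and 8 higher and 13 lower in lung (0.00, with 5 higher without culture replicate 1 and 13 with voom). Its COPII coat gene Sec24d changed by -2.76 ± 0.14 in BM and -1.94 ± 0.14 in lung.

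Among 20 tested UPR sensors, proteases and transcription factors, 6 rose and 7 fell in BM and 5 rose and 5 fell in lung, against culture, near the 30.7% and 29.8% over all genes in BM and the 27.9% and 27% in lung. Creb3l2, a factor related to ATF6 and cut in the same way, averaged 10.5 CPM in lung, 2.62 CPM in BM and 31.1 CPM in culture. Its log2 change was -3.57 ± 0.19 in BM against culture (adjusted p = 5.57e-09), and it was higher in lung than in BM (adjusted p = 9.61e-06). Atf6 itself, named after its values were seen, averaged 72.5 CPM in lung, 52.9 CPM in BM and 130 CPM in culture. It fell in both tissues against culture (-0.84 in lung and -1.29 in BM). Atf6b of the same list, also named after its values were seen, averaged 169, 136 and 117 CPM in lung, BM and culture. It rose in both tissues against culture (0.54 in lung and 0.22 in BM). Crebzf, with the highest CPM of the list (533, 531 and 322 CPM), rose in both as well (0.73 in lung and 0.72 in BM). Ern1, which encodes IRE1, did not pass (39.2, 37.0 and 32.8 CPM in lung, BM and culture). In lung against BM, 7 of the 20 rose, beside 14.2% of all genes.

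Nearly all genes listed for the PERK and ATF4 arm were lower in tissue than in culture. This list does not hold Eif2ak3, which encodes PERK, and the activity of PERK was not measured. Of the 25 tested genes of the list 24 fell and 1 rose in BM against culture (median -1.80). In lung 22 fell and 2 rose (-1.24), where 29.8% of all genes fell in BM and 27% in lung. The 1 riser in BM, Wars, a tRNA synthetase gene, did not pass without BM replicate 1 or culture replicate 1 or 2. Asns, asparagine synthetase, with the highest CPM of the list, averaged 499 CPM in lung, 449 CPM in BM and 1178 CPM in culture. In lung against BM 19 of the 25 rose (median 0.63), beside 14.2% of all genes. Cytosolic heat shock genes rose in 13 of 19 in BM and 15 of 19 in lung against culture, with 2 lower in each (medians 0.46 and 0.51), where 30.7% and 27.9% of all genes rose. Hspa8, a constitutive cytosolic chaperone, averaged 1574 CPM in lung, 1340.2 CPM in BM and 440 CPM in culture.

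**Figure D5:**
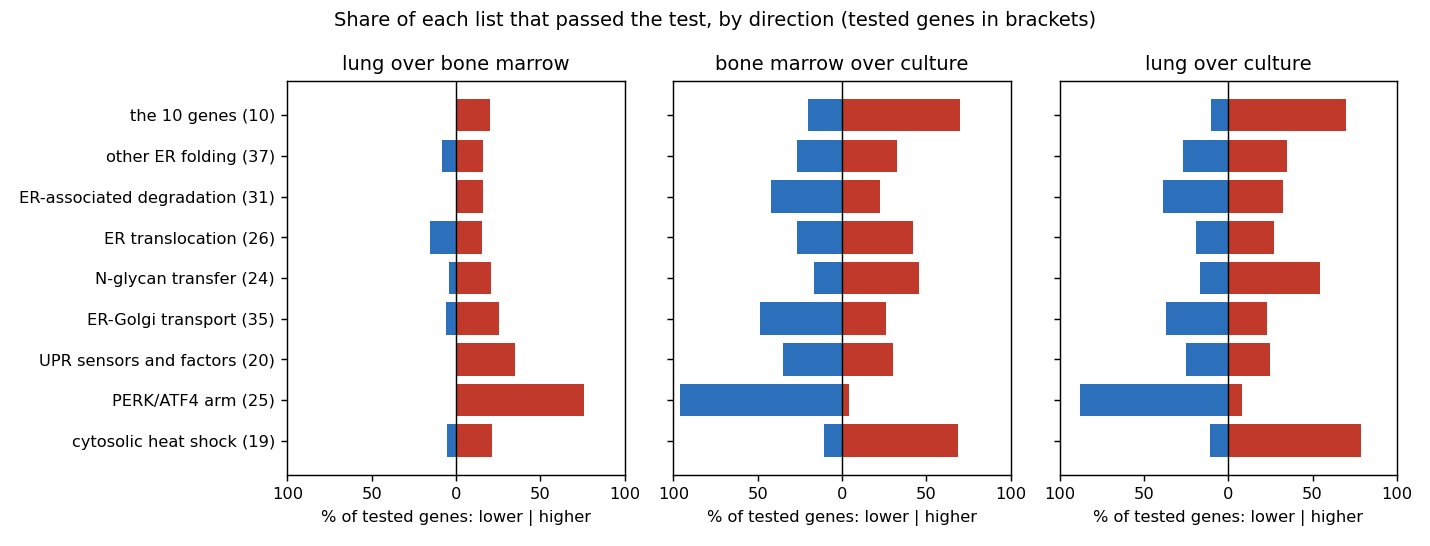
Share of the tested genes of each list that passed the test, higher (red, right) or lower (blue, left), in the 3 comparisons. The 10 genes and the cytosolic heat shock list lie mostly on the higher side against culture, and the PERK and ATF4 arm mostly on the lower side, with 24 of 25 lower in BM and 22 of 25 lower in lung.

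The same element search was carried to all promoter windows, to see where other genes with these letters stood. ERSE was in windows of 37 genes, of which 18 were tested, and 14 of these are not among the 10. In BM against culture 6 of the 14 rose and 1 fell, with 30.7% of all genes higher and 29.8% lower (3 rose without culture replicate 2, and 2 fell without BM replicate 3). In lung against culture 5 rose and 2 fell, with 27.9% higher and 27% lower (1 fell without lung replicate 1 or 3). The stricter filter on low counts left 9 of the 14 to test, of which 5 rose in BM, 4 rose in lung and 0 fell in either. The median log2 change of the 14 was 0.25 in BM and 0.29 in lung, beside 0.05 and 0.02 over all genes. The other 4 of the 18 are Calr, Canx, Creld2 and Pdia6, given above. The 14 include, named after their values were seen, Hsp90b1, the ER member of the HSP90 family (338, 307 and 254 CPM in lung, BM and culture), and Dnajc3, a BiP co-chaperone (161, 158 and 98.8 CPM). They also include Hspa5, given above, whose change in BM against culture did not pass. Syvn1, from the list of ER-associated degradation, is another (111, 93.8 and 106 CPM) and passed in neither tissue against culture. ERSE-II was in windows of 12 genes, of which 9 were tested, Herpud1 and 8 others. Of the 8, 5 rose and 2 fell in BM against culture and 4 rose and 3 fell in lung, beside the same shares over all genes. Krtcap2, a subunit linked to the oligosaccharyltransferase, was lower with Herpud1 (59.6, 47.0 and 133 CPM in lung, BM and culture), and Dnajb11, a BiP co-chaperone, was higher (191, 147 and 115 CPM).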

How the data were processed

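RNA of mouse AML cells from lung, BM and culture was measured in 9 libraries. Per the labels' protocols, kits for ultra-low input were used: RNeasy Plus Micro for extraction, then SMART-seq v4 and ThruPLEX for the libraries. Per the submitters' processing notes, reads were handled with bcl2fastq and STAR on mm10; for versions, counting tool and annotation the sources used here give nothing. Each deposited table lists whole-number read counts by gene symbol, made without strand as the table names put it. The files give no gene coordinates; these, with exon lengths, are from GENCODE M21 (GRCm38, the assembly of mm10).

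Counts were filtered with filterByExpr, scaled with TMM and fitted over all 9 libraries with edgeR 4.0.16 (robust quasi-likelihood, R 4.3.3). Adjusted p-values are Benjamini-Hochberg over 15066 genes, passing under 0.05. Levels are CPM. The 10 genes, lists and rules were chosen with earlier results of these data known. All 10 genes are named. The rule for others took from each list up to 2 passing genes per direction and comparison with the largest change at 10 CPM or more, and the most abundant gene; not all are printed. The nearest profiles come from genes averaging 10 CPM or more.

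The fit was tested on simulated counts. No libraries of a group agreed within sampling noise (chi-square per degree of freedom at least 4.03). That value was 4.03 to 8.31 between culture libraries, 15.8 to 29.6 between lung libraries and 30.8 to 44.7 between BM libraries. The fit nonetheless estimated the spread of each gene over all 9 libraries together, so lung against BM also drew on the culture libraries. Alternatives used other scalings and filters, DESeq2 1.42.0, limma 3.58.1 voom with quality weights, 6 libraries alone, the replicate block, and leaving out each library.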

Additional observations from a re-analysis of the deposited data

Results flagged for a closer look

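The change against culture differed between the tissues for Xbp1 and Herpud1. The test of that difference is lung against BM, and because both changes use the same culture libraries it adds nothing to that comparison. For Xbp1 the lung change exceeded the BM change by 0.48 on the log2 scale (adjusted p = 0.0485, edgeR quasi-likelihood test), higher in 2 of 3 lung libraries than in every BM library, a call lost in 10 of the 18 alternatives. For Herpud1 it did so by 0.39 (adjusted p = 0.0114), higher in 3 of 3 lung libraries than in every BM library. Neutrophil markers, at 11.3 to 83.3 CPM in lung against 327 to 2044.5 CPM in BM, differ between the same libraries, and their part in either difference was not tested.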

How the results depend on the processing

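Each of the 30 log2 changes of the 10 genes was recomputed under 18 alternatives. Of these 540 values 500 stayed on the same side of the threshold, 29 lost a call, 11 gained one and no called change turned its direction. Apart from leaving out libraries, Canx in BM against culture lost its call with RLE scaling, without the low-count filter and with the replicate block (adjusted p = 0.0611, 0.064 and 0.0645), and Pdia4 in BM gained one in 6 alternatives, the replicate block among them (0.0484). The labels tie no libraries with the same replicate number to a shared mouse or batch. Between lung and BM the correlation of deviations was 0.03 to 0.27 for the same number and -0.24 to 0.14 for unlike numbers. Tissue and culture libraries of the same number gave -0.06 to 0.00. Whether lung and BM libraries are paired cannot be told from these values. The block changed no other call of the 10 genes, and its counts of all genes were 4133, 9228 and 8433 in lung against BM, BM against culture and lung against culture. The number of the 10 genes higher in lung than in BM was 1 in place of 2 under upper-quartile scaling, with library size alone and in the 6 libraries alone, and 0 to 2 without 1 library; the number lower stayed 0. Against culture, leaving out 1 library gave 6 to 8 higher and 2 lower in BM, and 5 to 7 higher and 1 lower in lung. All genes passing in lung against BM numbered 3806 (2138 higher, 1668 lower), 2381 in the 6 libraries alone and 2414 to 4760 without 1 library, with a split of 1796 higher and 2088 lower under upper-quartile scaling; the cause was not tested. Without 1 library, 7962 to 9343 genes passed in BM against culture and 7142 to 8865 in lung against culture. Of 60 alternative levels per kilobase 24 moved by more than 1 SD, mostly with the longest transcript as length.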
